A study of Homo sapiens with 6 samples.

Results

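Interferon-stimulated genes are the genes that cells switch on when interferon binds its receptors, and they code for much of the antiviral machinery of a cell. The transcripts described here are 42 such genes, chosen by gene symbol from a fixed list and followed through every library of a study of SKM-1 cells. Of the 42 genes, 41 had a row in at least 1 of the 3 deposited tables, which hold 26704 genes in all, and 39 had a row in all 3. OAS2 and GBP1 had a row in the VEM+BOR table only, with 2 reads each over its 3 libraries, and XAF1 had no row. A mean of at least 1 CPM, reads scaled to the library total, was reached over the 6 libraries by 33 genes. Below that level were IFIT1, IFIT2, OASL, RSAD2, IFI44 and EPSTI1, at means between 0.113 CPM for IFI44 and 0.497 CPM for RSAD2.

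The cells were SKM-1, a human line derived from acute myeloid leukaemia. The untreated cells gave 2 libraries, cells given BOR gave 2, cells given VEM gave 1 and cells given VEM together with BOR gave 1. VEM stands for vemurafenib, a RAF kinase inhibitor named in the title of the series, and the labels do not spell out BOR. Doses, exposure times and any vehicle given to the untreated cells are not stated in the sources used here, and no group is labelled as receiving interferon. The labels do not say that libraries of 1 group came from separate cultures, so the p-values below measure only how these libraries spread, and that spread may be technical.

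Library totals lay between 17252404 and 18507606 reads, and 1 read was worth 0.0540 to 0.0580 CPM. The summed level of 8 myeloid blast markers, which include MPO, ELANE and PRTN3, was 5664 to 6362 CPM in the untreated and BOR libraries, 2581 CPM in VEM and 2287 CPM in VEM+BOR. The summed level of 8 monocyte and granulocyte markers was 3415 to 3790 CPM in the untreated libraries and BOR 1, 5162 CPM in BOR 2, 5738 CPM in VEM and 6002 CPM in VEM+BOR. Most of this sum was S100A9, at 3058 to 3357 CPM in the untreated libraries and BOR 1, and 4510 CPM in BOR 2. S100A9 was at 5011 and 4675 CPM in VEM and VEM+BOR. Most of the blast sum was MPO, ELANE and PRTN3, so neither sum describes all 8 markers of its list. The T cell markers CD3D, CD3E, CD3G and CD2, the B cell marker MS4A1 and the epithelial markers KRT18, KRT19 and CDH1 had no row. BOR 2 stood apart from the other 5 libraries: 37.5% of the 15462 genes tested on 1 scale had their lowest value there and 39.3% their highest. Mitochondrial genes took 3.14% of its reads, against 4.23% to 5.40% in the other libraries. The main results that rest on BOR 2 are therefore given with and without it.

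As background, type I interferons bind the receptor pair IFNAR1 and IFNAR2, and the kinases JAK1 and TYK2 then phosphorylate STAT proteins, STAT2 among them. These join IRF9 to form the complex ISGF3, which binds the interferon-stimulated response element (ISRE) in the promoters of most of the genes described here. Interferon gamma acts on a second element, the gamma-activated site (GAS). Many of these genes also keep a low level of transcription without added interferon. None of the 22 genes for type I, II and III interferons that were looked up had a row in any table.

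Promoter sequences were available for 34 of the 42 genes in RefSeq on GRCh38.p14. The core of the ISRE, read here as GAAA and GAAA with any 2 bases between them, was found on either strand within the 250 bases before the gene start in 21 of these 34 genes, or 61.8%. Among all 27305 genes with a promoter entry the share was 3.71%. The letters TTCNNNGAA, the symmetric form of the GAS, were found in 10 of the 34 genes, or 29.4%, against 8.09% of all genes. A match is a description of these letters and not a measured binding site. Forms with 1 base between GAAA and GAAA were not counted, so a promoter without a match is not shown to lack an ISRE. The 6 promoters below are shown because the results turn on their genes, with matches in capitals and the last base lying next to the gene start. ISG15 and OAS3 are genes of high level per kilobase with 2 ISRE matches each. IFI44L had the highest log2 change of the list in VEM and in VEM+BOR against untreated cells, SAMD9 was among the genes lowest in BOR 2 relative to BOR 1, PARP14 carries both elements, and IRF1 carries a GAS match alone.
ISG15 (chr1:1013247-1013496, plus strand): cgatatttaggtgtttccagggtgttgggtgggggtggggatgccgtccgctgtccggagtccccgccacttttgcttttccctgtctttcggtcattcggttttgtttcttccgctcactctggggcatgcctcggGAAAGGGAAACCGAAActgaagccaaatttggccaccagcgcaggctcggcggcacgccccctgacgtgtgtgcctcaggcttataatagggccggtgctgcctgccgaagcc
OAS3 (chr12:112938224-112938473, plus strand): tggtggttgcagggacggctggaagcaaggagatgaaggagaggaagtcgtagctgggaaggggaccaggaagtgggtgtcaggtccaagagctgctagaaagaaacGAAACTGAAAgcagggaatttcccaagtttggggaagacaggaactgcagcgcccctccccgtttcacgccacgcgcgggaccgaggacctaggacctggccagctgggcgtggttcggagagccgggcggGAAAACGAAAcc
IFI44L (chr1:78620198-78620447, plus strand): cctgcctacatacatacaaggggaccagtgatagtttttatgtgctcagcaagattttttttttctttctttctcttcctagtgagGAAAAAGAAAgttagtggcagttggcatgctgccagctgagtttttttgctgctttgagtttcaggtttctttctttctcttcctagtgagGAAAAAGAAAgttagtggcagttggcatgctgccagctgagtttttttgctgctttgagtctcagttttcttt
SAMD9 (chr7:93117980-93118229, minus strand): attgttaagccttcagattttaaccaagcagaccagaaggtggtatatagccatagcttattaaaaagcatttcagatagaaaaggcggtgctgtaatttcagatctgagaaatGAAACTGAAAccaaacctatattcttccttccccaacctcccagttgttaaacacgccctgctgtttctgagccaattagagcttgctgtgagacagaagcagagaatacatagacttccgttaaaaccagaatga
PARP14 (chr3:122680589-122680838, plus strand): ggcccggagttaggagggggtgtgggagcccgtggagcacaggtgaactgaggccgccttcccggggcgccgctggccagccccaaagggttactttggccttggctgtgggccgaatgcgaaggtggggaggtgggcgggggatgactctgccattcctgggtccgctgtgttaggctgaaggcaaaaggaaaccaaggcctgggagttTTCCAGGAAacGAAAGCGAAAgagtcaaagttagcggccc
IRF1 (chr5:132490774-132491023, minus strand): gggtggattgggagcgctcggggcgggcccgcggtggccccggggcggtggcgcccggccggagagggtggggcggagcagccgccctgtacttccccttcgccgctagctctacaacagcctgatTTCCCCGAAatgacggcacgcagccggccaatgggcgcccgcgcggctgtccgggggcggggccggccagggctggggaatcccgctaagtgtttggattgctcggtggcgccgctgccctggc

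In the ISG15 promoter the matches begin 113 and 107 bases before the gene start and overlap. In IFI44L the same 10 letters recur at 164 and 73 bases before the start. The PARP14 promoter has its GAS match 40 bases and its ISRE match 29 bases before the start, and the GAS match of IRF1 begins 124 bases before it. Neither HERC6 nor SAMD9L had a match in the 250 bases read. MX1 has 3 annotated starts in the table, and only the window before the third held an ISRE and a GAS match. The window before the second start holds GAAA and GAAA with 1 base between them, a form not counted here.

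The level of these genes in untreated cells ranged widely. Per kilobase of gene length, MNDA led at 116 CPM per kilobase (mean of the 2 untreated libraries), followed by ISG15 at 37.2, IFI6 at 15.4, BST2 at 11.4 and IFI35 at 8.88. OAS3 was at 7.25, GBP2 at 7.23 and EIF2AK2 at 6.27 CPM per kilobase. Among the 33 genes, IFI44L at 0.0862 and IFI16 at 0.295 CPM per kilobase were the lowest. The spread between the untreated libraries was 204 ± 131 normalised reads for BST2 and 212 ± 137 for IFI6 (SD, n = 2), so the order of BST2, IFI6 and their neighbours is not settled by 2 libraries. ISG15 at 573 ± 79.6 and EIF2AK2 at 1110 ± 15.5 were steadier.

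From here, values are normalised read counts of the gene over all its annotated exons, on 1 scale for the 6 libraries. Gene positions are those of the deposited tables, which equal GENCODE 29 on GRCh38. Log2 changes are differences of log2(value + 1), which understate the change of genes with low counts. In these bulk libraries fewer cells that express a gene and less RNA of it per cell cannot be told apart. No gene of the list passed the threshold, an adjusted p under 0.05, in any comparison, so the differences below are values and not calls.

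The 5 genes grouped as nucleic acid sensors code for proteins that recognise foreign RNA or DNA, or for helpers and relatives of such proteins. IFIH1, which codes for the RNA sensor MDA5 (chromosome 2, 162267079 to 162318703), was at 241 and 249 in untreated 1 and 2, 285 and 48.7 in BOR 1 and 2, 279 in VEM and 249 in VEM+BOR. DDX58, the gene of the RNA sensor RIG-I, was at 152 and 107 in untreated 1 and 2, 125 and 12.2 in BOR 1 and 2, 109.7 in VEM and 129 in VEM+BOR. The 5 libraries other than BOR 2 lay close together for both genes, and BOR 2 was the lowest. DDX60, a helicase that assists RIG-I, was at 114 and 63.7 in untreated 1 and 2, 129 and 14.9 in BOR 1 and 2, 79.3 in VEM and 120.2 in VEM+BOR. IFI16, a DNA sensor, was low throughout, at 32.8 and 17.7 in untreated 1 and 2, 25.0 and 2.70 in BOR 1 and 2, 10.1 in VEM and 27.5 in VEM+BOR. MNDA (ENSG00000163563, chromosome 1, 158831317 to 158849506), a relative of IFI16 that marks myeloid cells, was at 3544 and 4372 in untreated 1 and 2, 4785 and 311 in BOR 1 and 2, 2461 in VEM and 3202 in VEM+BOR. MNDA in VEM and VEM+BOR lay below both untreated values, and BOR 2 lay far below all others.

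The transcription factors among the list carry the response forward. IRF1 (chromosome 5, 132481609 to 132490798, minus strand) activates many of the same promoters and is itself induced by interferon. It was at 285 and 264 in untreated 1 and 2, 332 and 1264 in BOR 1 and 2, 290.4 in VEM and 492 in VEM+BOR. On this scale all 4 treated libraries lay above both untreated ones for IRF1, and BOR 2 lay highest. In CPM, IRF1 in VEM lay just below untreated 1, at 18.3 and 18.5. IRF1 shares 1716 exonic bases with C5orf56 on the opposite strand, and reads of the pair cannot be told apart without strand. IRF7, the factor that amplifies type I interferon production (chromosome 11, 612553 to 615999, minus strand), was at 85.2 and 122 in untreated 1 and 2, 103 and 1008 in BOR 1 and 2, 125 in VEM and 135 in VEM+BOR. STAT2, the ISGF3 subunit, was at 376 and 219 in untreated 1 and 2, 341 and 445 in BOR 1 and 2, 389 in VEM and 383 in VEM+BOR. IRF9, the DNA-binding subunit of ISGF3, was at 18.6 and 29.4 in untreated 1 and 2, 13.0 and 9.46 in BOR 1 and 2, 20.3 in VEM and 22.0 in VEM+BOR, and it shares 1838 exonic bases with a neighbouring gene model. For IRF7 only BOR 2 stood apart, while STAT2 had its lowest value in untreated 2.

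The IFIT proteins bind foreign RNA ends, and the OAS enzymes make the 2-5A messenger that activates RNase L. IFIT3 was at 46.2 and 42.2 in untreated 1 and 2, 42.6 and 4.06 in BOR 1 and 2, 26.7 in VEM and 36.7 in VEM+BOR. IFIT5 was at 61.2 and 40.2 in untreated 1 and 2, 58.3 and 9.46 in BOR 1 and 2, 54.4 in VEM and 54.1 in VEM+BOR. Both genes were lowest in BOR 2, while IFIT1 and IFIT2 had 1 to 22 reads in any library and a mean under 1 CPM. OAS3, the best expressed OAS gene, was at 1253 and 678 in untreated 1 and 2, 864 and 1007 in BOR 1 and 2, 1113 in VEM and 922 in VEM+BOR. OAS1 was at 44.4 and 12.7 in untreated 1 and 2, 19.4 and 14.9 in BOR 1 and 2, 18.4 in VEM and 11.9 in VEM+BOR. In both OAS genes untreated 1 lay highest, and OAS1 in untreated 2 lay between BOR 2 and VEM+BOR.

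The ISG15 system attaches the ubiquitin-like ISG15 protein to targets, with HERC5 as its main ligase and USP18 as the enzyme that removes it and also restrains the receptor. ISG15 (chromosome 1, 1001138 to 1014540) was at 629 and 517 in untreated 1 and 2, 523 and 1113 in BOR 1 and 2, 569 in VEM and 539 in VEM+BOR. USP18 was at 216 and 195 in untreated 1 and 2, 229.6 and 404 in BOR 1 and 2, 292 in VEM and 197 in VEM+BOR. These 2 genes were highest in BOR 2 on this scale, while in CPM USP18 was highest in VEM, at 18.4 against 16.2 in BOR 2. HERC5 was at 449 and 394 in untreated 1 and 2, 447 and 97.3 in BOR 1 and 2, 285 in VEM and 300.0 in VEM+BOR. HERC6 (ENSG00000138642, chromosome 4, 88378739 to 88443111), a neighbour and relative of HERC5, was at 124 and 118 in untreated 1 and 2, 96.3 and 14.9 in BOR 1 and 2, 59.9 in VEM and 38.5 in VEM+BOR. HERC6 was below both untreated values in all 4 treated libraries, and HERC5 in 3 of them.

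MX1, MX2 and GBP2 are large GTPases of the interferon response. MX1 (chromosome 21, 41420304 to 41459214), which blocks influenza viruses, was at 73.7 and 42.2 in untreated 1 and 2, 27.8 and 13.5 in BOR 1 and 2, 30.4 in VEM and 22.9 in VEM+BOR. Like HERC6, MX1 lay below both untreated values in all 4 treated libraries. MX2, which restricts HIV, was at 146 and 87.3 in untreated 1 and 2, 145 and 362 in BOR 1 and 2, 72.8 in VEM and 91.7 in VEM+BOR. GBP2 was at 929 and 538 in untreated 1 and 2, 526 and 1430.3 in BOR 1 and 2, 1096 in VEM and 664 in VEM+BOR, and 621 of its exonic bases belong also to GBP7. BOR 2 was the highest library for MX2 and GBP2 and the lowest for MX1 on this scale. In CPM, GBP2 was highest in VEM, at 68.9, with 60.3 in untreated 1 and 57.2 in BOR 2. HERC6 and MX1 were the 2 of 33 genes below both untreated libraries in every treated library, a pattern seen in 3.79% of all genes tested. IRF1 was the 1 of 33 genes above them in every treated library, a pattern seen in 6.29% of all genes. In CPM the pattern did not hold for IRF1, since VEM lay just below untreated 1.

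PARP9, PARP14 and DTX3L form a group of ADP-ribosylation and ubiquitin enzymes next to each other on chromosome 3. PARP14 (122680618 to 122730840) was at 703 and 413 in untreated 1 and 2, 596 and 41.9 in BOR 1 and 2, 478 in VEM and 509 in VEM+BOR. DTX3L was at 636 and 459 in untreated 1 and 2, 568 and 150.1 in BOR 1 and 2, 574 in VEM and 677 in VEM+BOR. PARP9 was at 276 and 211 in untreated 1 and 2, 243 and 101 in BOR 1 and 2, 241 in VEM and 178 in VEM+BOR, and PARP9 and DTX3L share 217 exonic bases on opposite strands. For all 3 genes the lowest library was BOR 2.

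Among the restriction factors, EIF2AK2 codes for the RNA-dependent kinase PKR, SAMHD1 breaks down deoxynucleotides, and SAMD9 with its paralogue SAMD9L limits poxviruses and slows protein synthesis. EIF2AK2 was at 1121 and 1099 in untreated 1 and 2, 1469 and 368 in BOR 1 and 2, 1156 in VEM and 1342 in VEM+BOR. SAMHD1 was at 970.2 and 702 in untreated 1 and 2, 1120.2 and 327 in BOR 1 and 2, 526 in VEM and 763 in VEM+BOR, and 1159 of its exonic bases overlap TLDC2. Both were lowest in BOR 2, and SAMHD1 in VEM lay below both untreated values. SAMD9 (ENSG00000205413, chromosome 7, 93099513 to 93118023) was at 528 and 293 in untreated 1 and 2, 468 and 10.8 in BOR 1 and 2, 253 in VEM and 365 in VEM+BOR. SAMD9L (ENSG00000177409, chromosome 7, 93130055 to 93148369) was at 376 and 138 in untreated 1 and 2, 303 and 1.35 in BOR 1 and 2, 155 in VEM and 194 in VEM+BOR. In BOR 2, 8 reads of SAMD9 and 1 read of SAMD9L were counted. BST2, the tetherin that holds virus particles at the cell surface, was at 296 and 111 in untreated 1 and 2, 309 and 208 in BOR 1 and 2, 199 in VEM and 266 in VEM+BOR. TRIM22 was at 87.0 and 33.3 in untreated 1 and 2, 68.5 and 10.8 in BOR 1 and 2, 37.8 in VEM and 62.4 in VEM+BOR. BST2 was lowest in untreated 2, and its value in BOR 2 lay within the range of the other libraries, while TRIM22 was lowest in BOR 2.

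The remaining genes have less defined roles. IFI6, which protects mitochondria and restricts flaviviruses, was at 309 and 116 in untreated 1 and 2, 322 and 237 in BOR 1 and 2, 270.1 in VEM and 289.9 in VEM+BOR. IFI35 was at 352 and 216 in untreated 1 and 2, 295 and 388 in BOR 1 and 2, 372 in VEM and 384 in VEM+BOR. IFI27 was at 36.4 and 7.85 in untreated 1 and 2, 22.2 and 35.1 in BOR 1 and 2, 20.3 in VEM and 12.8 in VEM+BOR. In these 3 genes untreated 2 was the lowest library. IFI44L (ENSG00000137959, chromosome 1, 78619922 to 78646145) was at 19.5 and 8.83 in untreated 1 and 2, 27.8 and 0 in BOR 1 and 2, 42.4 in VEM and 56.9 in VEM+BOR. The 2 libraries with VEM were its highest, with 46 and 62 reads against 22 and 9 in the untreated libraries, and BOR 2 had no read, where the floor of 3 reads stands at 4.06 normalised reads. Its neighbour IFI44 had 5 and 4 reads in VEM and VEM+BOR, 2 and 0 in untreated 1 and 2, and 1 and 0 in BOR 1 and 2.

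**Figure D1:**
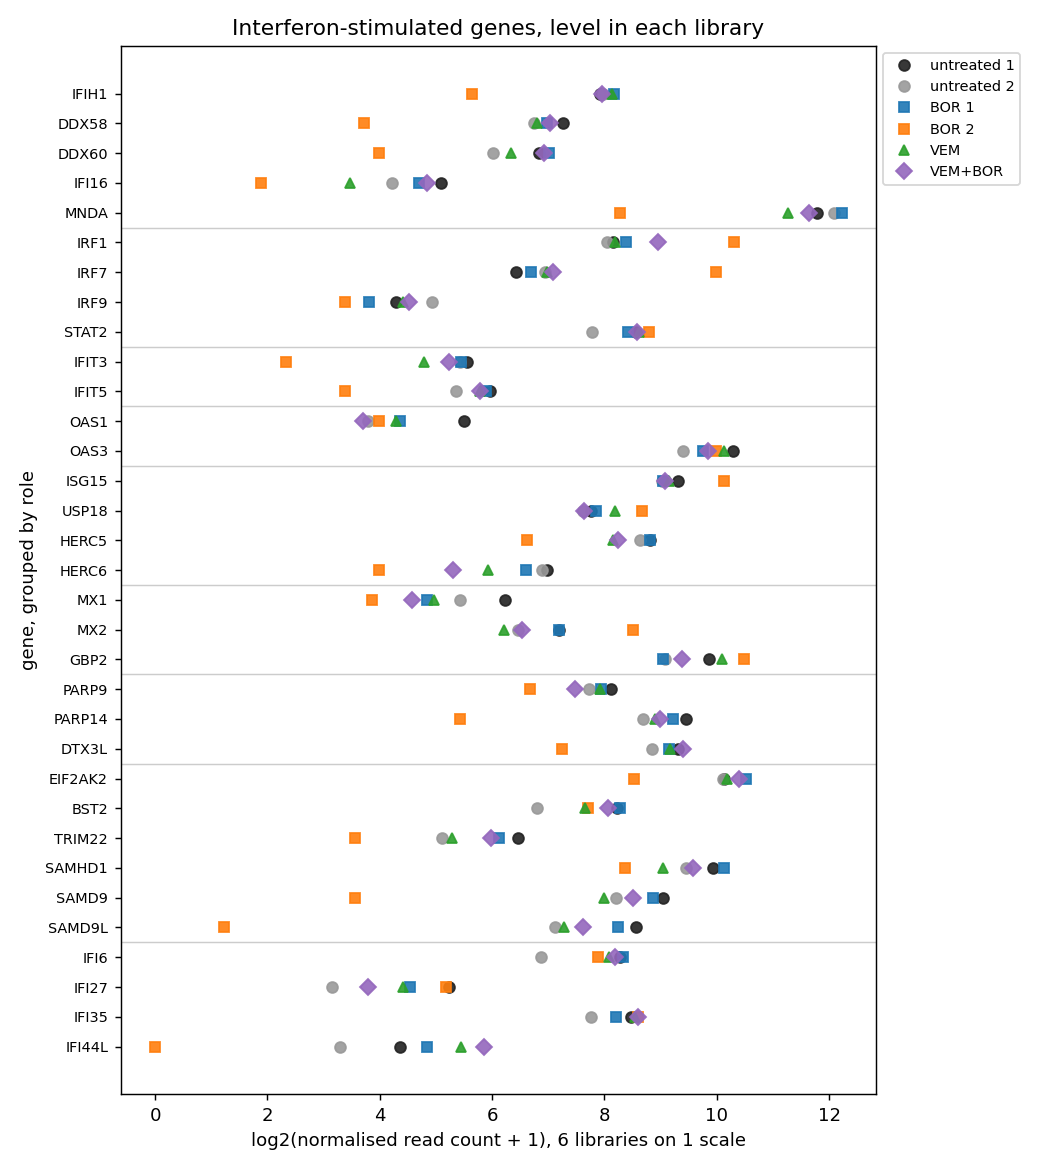
Level of the 33 interferon-stimulated genes at a mean of at least 1 CPM, grouped by role, as log2(normalised read count + 1) on the horizontal axis, with 1 point for each of the 6 libraries. BOR 2, the orange squares, lies lowest for 20 of the 33 genes, against 37.5% of all genes tested, and highest for 8, against 39.3%. The other 5 libraries mostly lie close together.

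VEM was set against untreated cells to see which of these genes differ after the RAF inhibitor alone. Of 34 genes tested, 0 passed the threshold (limma), where 0.0446% of all 15689 genes passed in either direction. At an unadjusted p under 0.05 there were also 0 of them, against 2.54% of all genes. Above both untreated libraries lay 9 genes, against 30.3% of all genes, and below both lay 9, against 27.6%. These shares are near the background. The median log2 change was -0.01, with 0.00 over all genes. By role, 3 of the 4 transcription factors lay above both untreated libraries, by small margins. On the scale of all 6 libraries IRF1, IRF7 and STAT2 were at 290.4, 125 and 389, against 285, 122 and 376 in the higher untreated library. STAT2 was level with untreated 1 in CPM, at 24.46 and 24.41. HERC5, HERC6, MX1, MX2, SAMD9 and SAMHD1 were among the genes below both. With libraries scaled to their totals the count above both untreated libraries was 7. In CPM, IRF1 in VEM lay just below untreated 1, at 18.3 and 18.5. HERC6 differed by -1.01 (SE 0.55, limma adjusted p = 1.0) and IFI44L by 1.61 (SE 0.86, limma adjusted p = 1.0). ISG15 differed by -0.01 (SE 0.39, limma adjusted p = 1.0), an interval that spans both directions. This comparison has 1 residual degree of freedom, and the lone VEM library was assumed to vary like the untreated pair.

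VEM+BOR was set against untreated cells in the same way. Of 33 genes tested, 0 passed (limma), against 0.192% of all 15606 genes, and 2 had an unadjusted p under 0.05, against 3.01% of all genes. With edgeR and DESeq2 on recovered reads 0 of the list passed, where 87 and 64 of all genes did. In these tools 2 and 1 genes of the list had an unadjusted p under 0.05. HERC6 was lower, with a log2 change of -1.64 (SE 0.57, limma adjusted p = 0.772) and an unadjusted p of 0.00915, and IFI44L higher, with 2.02 (SE 0.84, limma adjusted p = 0.99991) and an unadjusted p of 0.0253. Above both untreated libraries lay 8 genes, against 30.1% of all genes, and below both lay 8, against 27.9%. On the scale of all 6 libraries 7 lay below, without USP18. The median log2 change was -0.07, with 0.01 over all genes. IRF1 differed by 0.83 (SE 0.42, limma adjusted p = 0.99991), and MX1 by -1.26 (SE 0.70, limma adjusted p = 0.99991). With libraries scaled to their totals the count above both untreated libraries was 4.

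Because VEM and VEM+BOR both contain the inhibitor, the 2 libraries were also set together against the untreated pair on 1 scale. They are not replicates of 1 treatment, since 1 of them also received BOR. Of 33 genes, 0 passed (limma), against 0.22% of 15477 genes, and 2 had an unadjusted p under 0.05, against 6.25% of all genes. HERC6 differed by -1.31 (SE 0.38, limma adjusted p = 0.385) and IFI44L by 1.82 (SE 0.55, limma adjusted p = 0.427), with unadjusted p-values of 0.00656 and 0.00866 in limma. Both treated libraries lay above both untreated ones for IRF1, IRF7, STAT2, EIF2AK2, IFI35 and IFI44L, 6 genes where 19.4% of all genes do so. Both lay below for MNDA, IFIT3, HERC5, HERC6 and MX1, 5 genes where 14.4% of all genes do so. The members' counts are near these shares. The median log2 change was -0.08, with 0.01 over all genes. In the same 2 libraries 4 of 8 myeloid blast markers (MPO, ELANE, PRTN3 and CSF1R) lay below both untreated libraries and 1, ANPEP, above. Of 8 monocyte and granulocyte markers 5 (ITGAM, S100A8, S100A9, FCN1 and CYBB) lay above, and CD14 had 0 reads in both. The part of these markers in the values of MNDA, itself a myeloid gene, was not tested. Without untreated 1, 2 genes passed in limma: IFI6 at a log2 change of 1.27 (adjusted p = 0.0207) and IFI44L at 2.35 (adjusted p = 0.0228). In that fit 777 of all genes, or 5.07%, passed, so 2 of 33 is near the background. With libraries scaled to their totals, 2 genes instead of 6 lay above both untreated libraries.

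BOR against untreated cells compared 2 libraries with 2. Of 34 genes tested, 0 passed, and 0 had an unadjusted p under 0.05 (limma), where 0% of all 15382 genes passed and 0.247% had such an unadjusted p. With edgeR and DESeq2 on recovered reads 0 of the list passed, where 0 and 35 of all genes did. In these tools 0 and 2 genes of the list had an unadjusted p under 0.05. On the scale of the BOR table, IRF1, USP18 and MX2 lay above both untreated libraries in both BOR libraries, 3 genes against 11.7% of all genes. On the scale of all 6 libraries, and with scaling to library totals, the count was 2, since MX2 in BOR 1 was level with untreated 1 (145 and 146 on the former). IRF9, HERC6 and MX1 lay below in both, 3 genes against 8.24% of all genes. IRF1 differed by 1.24 (SE 0.71, limma adjusted p = 0.968), MX2 by 1.02 (SE 0.66, limma adjusted p = 0.968) and MX1 by -1.47 (SE 0.73, limma adjusted p = 0.968). SAMD9L, with the largest change of the list at -3.09 (SE 2.10, limma adjusted p = 0.968), had its untreated 2 value between the 2 BOR values. The median log2 change over the 34 genes was -0.75, with 0.04 over all genes, and it rests on BOR 2. Without BOR 2 it was 0.19 and 0 genes passed. The changes then were 0.28 for IRF1, 0.37 for MX2, -0.98 for MX1 and 0.41 for SAMD9L. Without BOR 1, 18 genes passed in limma, 3 higher and 15 lower, where 4008 of all genes, or 26.1%, passed. None of these genes had an adjusted p under 0.05 in the authors' deposited table of any of the 3 comparisons, where the lowest value was 0.607, for IRF7 in BOR. Of all genes, 18 had such a value there for BOR, 16 for VEM and 60 for VEM+BOR.

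VEM+BOR was compared with BOR to see what VEM adds. Of 33 genes 0 passed and 0 had an unadjusted p under 0.05 (limma), against 0% of 15423 genes passing and 0.279% at that unadjusted p. With edgeR and DESeq2 0 of the list passed, where 0 and 3 of all genes did, and 0 of the list had an unadjusted p under 0.05. DDX58, IFI16, IRF9, DTX3L and IFI44L lay above both BOR libraries, 5 genes against 22.3% of all genes, and OAS1, USP18, MX2 and IFI27 below both, 4 genes against 24.3%. The median log2 change was 0.33, with -0.01 over all genes, and it was 1.22 without BOR 1 and -0.15 without BOR 2. Without BOR 1, 19 genes passed in limma, 16 higher and 3 lower, where 3591 of all genes, or 23.3%, passed. The departure of VEM+BOR from the sum of the separate VEM and BOR changes passed for 0 of 33 genes and for 0 of 15462 genes in all, with 0 of the 33 at an unadjusted p under 0.05 (limma).

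**Figure D2:**
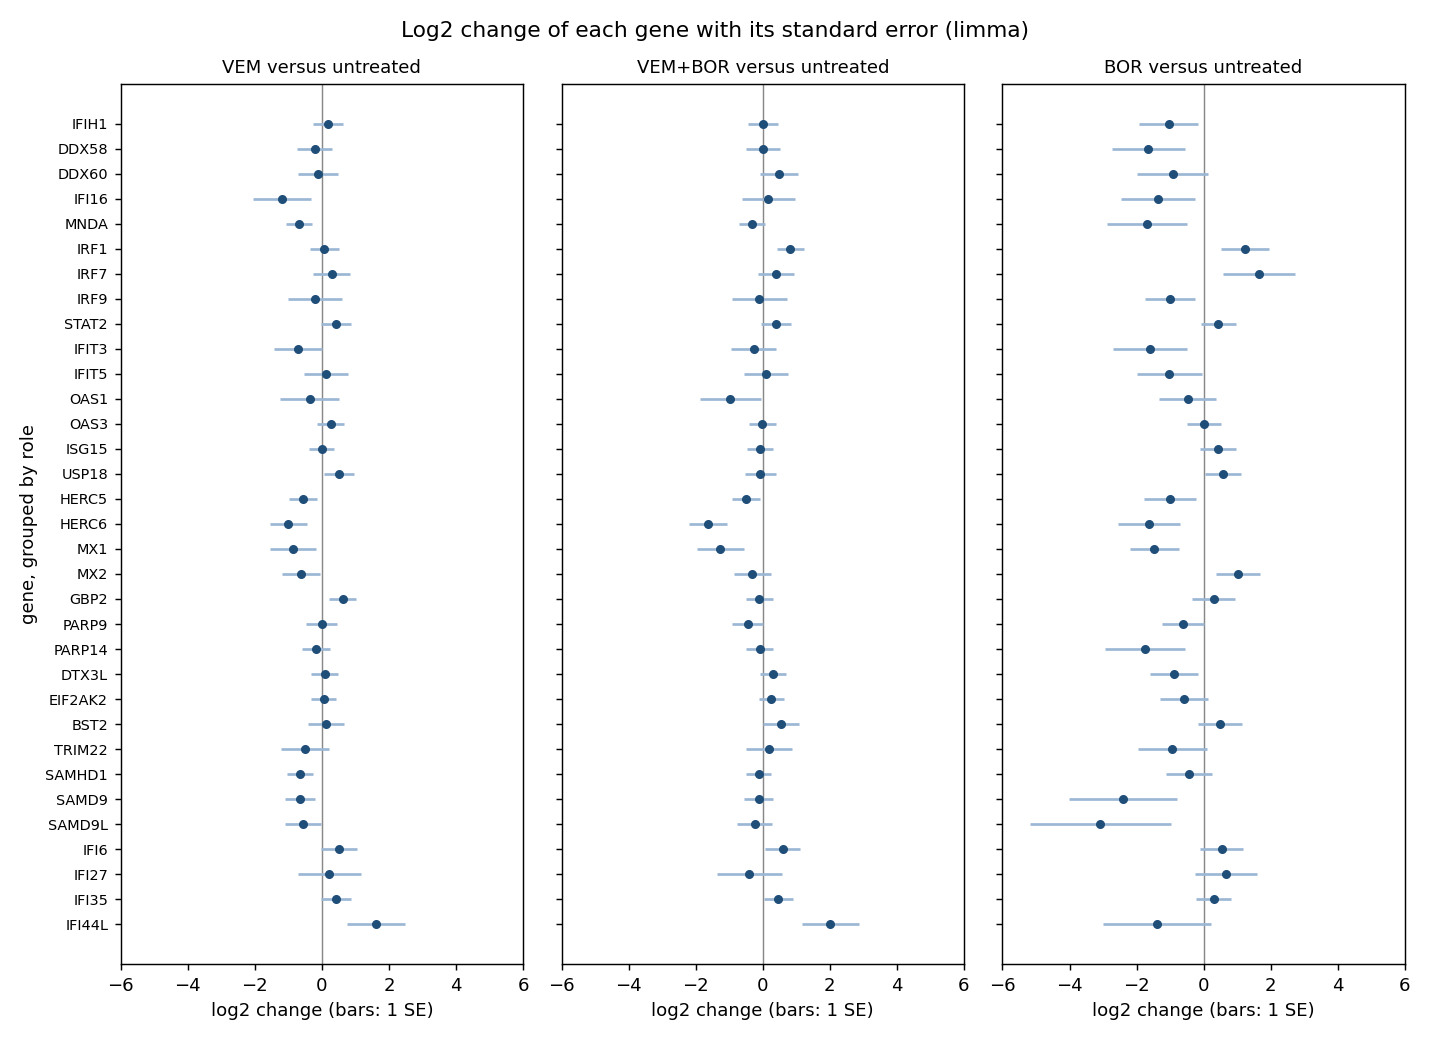
Log2 change of each gene against untreated cells, with bars of 1 standard error from limma, for VEM, VEM+BOR and BOR. Bars for BOR are the widest, and for SAMD9L the change is -3.09 with a standard error of 2.10.

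The 2 untreated libraries differed among these genes mostly in 1 direction. Untreated 1 was above untreated 2 in 29 of 33 genes, where 49.6% of all genes tested were. The median log2 difference was 0.71, and it ran from -0.63 for IRF9 to 2.08 for IFI27. Over 2-fold higher in untreated 1 were 7 genes, against 9.07% of all genes, and 0 were over 2-fold lower, against 2.48%. The widest ratios were 4.64 for IFI27 (41 and 8 reads), 3.48 for OAS1 (50 and 13 reads), 2.72 for SAMD9L (424 and 141 reads) and 2.68 for BST2 (334 and 113 reads). The 95% exact counting interval of the SAMD9L ratio ran from 2.24 to 3.32, and that of BST2 from 2.16 to 3.34. Such intervals cover counting error only. ISG15, with a ratio of 1.22, and EIF2AK2, with 1.02, differed little, and MNDA, IFIH1, IRF7 and IRF9 were lower in untreated 1.

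Untreated 1 was the highest of the 6 libraries in 15 of 33 genes, against 14.7% of all genes. Across all genes the difference depended on the level, with medians of 0.34, 0.13, -0.04 and -0.22 from the lowest to the highest quartile of mean level. In the 3 lower quartiles the medians of the interferon-stimulated genes were 0.83 over 10 genes, 0.73 over 15 genes and 0.47 over 7 genes, each above that of all genes at the same level. Pearson's r of the difference with GC content was 0.00 over all genes and -0.11 over the 33. Summed markers of other lineages were also higher in untreated 1, at 16.6 against 6.43 CPM for B cells and 9.61 against 1.94 CPM for fibroblasts. Their part in the difference was not tested. The myeloid blast sum was 5972 and 6267 CPM. In the other pathway lists the median log2 differences were 0.02 for receptors and JAK-STAT genes, 0.04 for sensors and adaptors, 0.02 for negative regulators and 0.10 for other interferon-induced genes.

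**Figure D3:**
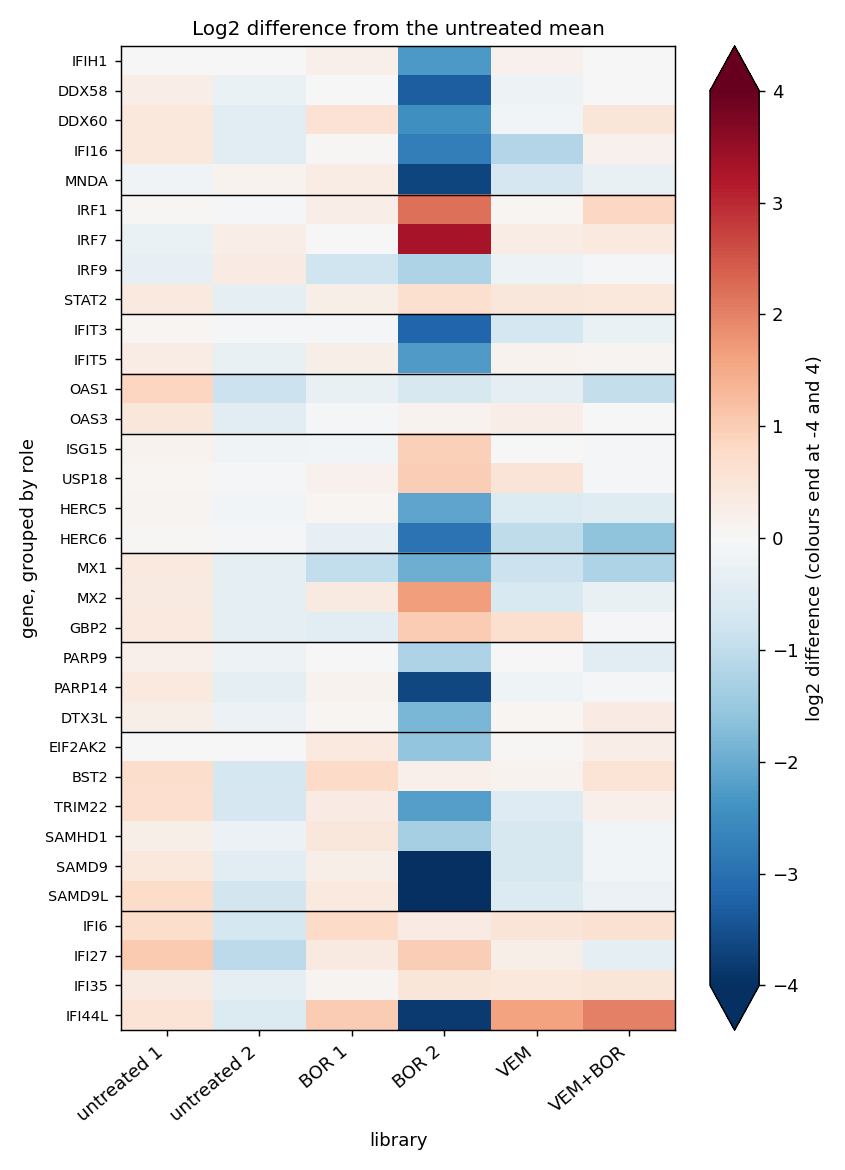
Log2 difference of each gene in each library from the mean of the untreated libraries, with genes grouped by role and colours ending at -4 and 4. Untreated 1 is mostly pale red and untreated 2 mostly pale blue, and the BOR 2 column holds the strongest colours of both signs.

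The 2 BOR libraries differed far more. BOR 1 lay near the untreated cells, with a median log2 difference of 0.16 from their mean over the 33 genes and 1 gene, IFI44L, over 2-fold higher. Against BOR 1, BOR 2 was over 2-fold lower in 18 of 33 genes, where 26.8% of all genes were, and over 2-fold higher in 5, where 17.9% were. The median log2 difference was -1.77, with 0.02 over all genes. All 5 sensors, both IFIT genes tested and all 3 genes of the PARP9 group were over 2-fold lower, with medians of -3.03, -2.81 and -1.91. Of the 6 restriction factors 5 were over 2-fold lower on this scale, with BST2 at -0.57. In CPM BST2 was at 8.32 in BOR 2 and 18.9 in BOR 1, over 2-fold lower as well. IFI6, at 9.46 and 19.7 CPM, also crossed 2-fold, so the counts over 2-fold depend on the scale. The transcription factors had a median of 1.15, and the 2 OAS genes tested one of -0.07.

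SAMD9L had 1 read in BOR 2 and 327 in BOR 1, a ratio of 224-fold lower with a 95% exact counting interval from 39.9 to 8872. SAMD9 was 43.2-fold lower (21.8 to 101), on 8 and 505 reads. MNDA was 15.4-fold lower (13.5 to 17.6), on 230 and 5169 reads, and PARP14 14.2-fold lower (9.92 to 21.1). IFI44L had 0 reads against 30, and the lower end of its 95% exact counting interval was 5.23-fold lower. With the floor of 3 reads put in place of 0, it was 6.85-fold lower. In the other direction, IRF7 was 9.81-fold higher (8.03 to 12.1), on 746 and 111 reads, and IRF1 3.80-fold higher. GBP2 was 2.72-fold, MX2 2.49-fold and ISG15 2.13-fold higher, and OAS3 differed 1.17-fold. These ratios depend on the scale. In CPM, BOR 2 and BOR 1 were at 57.2 and 32.1 for GBP2, and at 14.5 and 8.87 for MX2. ISG15 was at 44.5 and 31.9 CPM, so all 3 were under 2-fold higher. OAS3 was lower in BOR 2 in CPM, at 40.3 against 52.7. On the scale of all 6 libraries BOR 2 was lowest for 20 of the 33 genes and highest for 8, against 37.5% and 39.3% of all genes. The ISRE core was found in 10 of 17 genes with a promoter entry among those over 2-fold lower, 5 of 9 within 2-fold and 1 of 2 over 2-fold higher.

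The difference between the BOR libraries went with the GC content of the transcript. Across the 33 genes, Pearson's r with the GC content of the longest annotated transcript was 0.80 and Spearman's rho 0.82, and over 15455 genes they were 0.47 and 0.49. These are descriptions across genes of the same 2 libraries, and genes are not independent replicates. The 18 genes over 2-fold lower in BOR 2 had a GC content of 36.0% to 46.3%, and the 10 genes within 2-fold 48.2% to 58.8%. The 5 genes over 2-fold higher ran from 44.4% for GBP2 to 66.8% for IRF7. Of 21 genes below the median GC content of all genes, 48.9%, BOR 2 was lower in 19, with a median log2 difference of -2.56. Among all 7727 genes below it, 68.2% were lower, with a median of -0.74. Of the 12 genes at or above it, BOR 2 was lower in 4 and higher in 8, with a median of 0.39, against 30.7% lower and a median of 0.49 in all genes. The part of base composition in the difference was not tested. For BOR 1 against untreated cells r was -0.25 over the 33 genes.

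**Figure D4:**
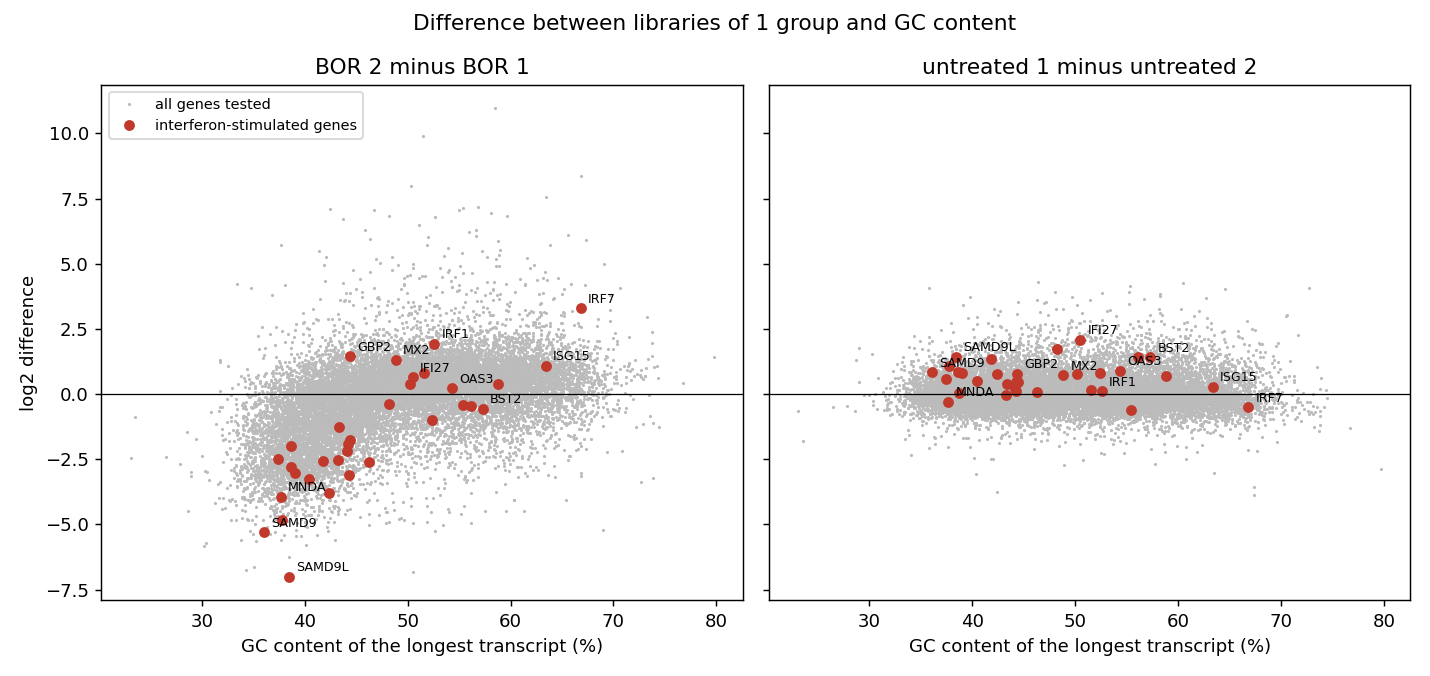
Log2 difference between the 2 libraries of a group against the GC content of the longest transcript in percent, for BOR 2 minus BOR 1 on the left and untreated 1 minus untreated 2 on the right, with all genes tested in grey and the 33 interferon-stimulated genes in red. On the left the red points climb from SAMD9L and SAMD9 at low GC content to IRF7 at 66.8%, and on the right they lie mostly above 0 at every GC content.

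The rest of the pathway was read from lists of receptors and JAK-STAT genes, sensors and adaptors, negative regulators and other interferon-induced genes. Of the 11 receptor and JAK-STAT genes 10 were tested, of 19 sensors and adaptors 11 or 12, of 16 negative regulators 15 and of 40 other induced genes 30 or 31. In every one of the 5 comparisons 0 of them passed in limma. IFNAR1 was at 861 and 957 in untreated 1 and 2, 1087 and 328 in BOR 1 and 2, 805 in VEM and 1116 in VEM+BOR, and IFNAR2 was low, at 27.5 and 22.6 in untreated 1 and 2, 28.7 and 41.9 in BOR 1 and 2, 19.4 in VEM and 23.9 in VEM+BOR. The kinase JAK1 was at 1637 and 1226 in untreated 1 and 2, 1496 and 626 in BOR 1 and 2, 1562 in VEM and 1631 in VEM+BOR, and TYK2 at 2894 and 3499 in untreated 1 and 2, 3099 and 4617 in BOR 1 and 2, 2845 in VEM and 3347 in VEM+BOR. BOR 2 was lowest for IFNAR1 and JAK1, and on this scale highest for TYK2 and IFNAR2. In CPM BOR 2 was not the highest library for TYK2 or IFNAR2 and lay below untreated 1 for both, so their direction depends on the scale. IRF3, the factor that induces interferon beta, was at 976 and 1367 in untreated 1 and 2, 1015 and 1653 in BOR 1 and 2, 1225 in VEM and 1291 in VEM+BOR.

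Other genes of these lists are named for the size of their change in VEM+BOR against untreated cells, up to 3 a list among those at a mean of at least 1 CPM. WARS, the tryptophanyl-tRNA synthetase gene induced by interferon gamma, was at 877 and 1260.1 in untreated 1 and 2, 1052 and 3474 in BOR 1 and 2, 2138 in VEM and 1849 in VEM+BOR. Its log2 change in the libraries with VEM was 0.92 (SE 0.23, limma adjusted p = 0.267), with an unadjusted p of 0.00313 in limma. TNFAIP3, which codes for the NF-kB inhibitor A20, was at 271 and 267 in untreated 1 and 2, 312 and 2043 in BOR 1 and 2, 418 in VEM and 523 in VEM+BOR. IFNGR2, a chain of the interferon gamma receptor, was at 585 and 532 in untreated 1 and 2, 611 and 2362 in BOR 1 and 2, 899 in VEM and 864 in VEM+BOR. These 3 genes lay above both untreated libraries in VEM, VEM+BOR and BOR 2. JAK2 was at 239.7 and 122 in untreated 1 and 2, 269 and 17.6 in BOR 1 and 2, 205 in VEM and 279.8 in VEM+BOR, and SOCS3, an inhibitor of JAK kinases, at 59.5 and 27.5 in untreated 1 and 2, 77.8 and 570.5 in BOR 1 and 2, 55.3 in VEM and 31.2 in VEM+BOR. TRIM25, the ubiquitin ligase for RIG-I, was at 1887 and 1479 in untreated 1 and 2, 1916 and 3681 in BOR 1 and 2, 2386 in VEM and 2105 in VEM+BOR, and CGAS, the cytosolic DNA sensor, at 358 and 299 in untreated 1 and 2, 418 and 694 in BOR 1 and 2, 470.1 in VEM and 466 in VEM+BOR. In VEM and VEM+BOR both TRIM25 and CGAS lay above the untreated pair, with log2 changes of 0.42 and 0.52 in the libraries with VEM that did not pass. TNFSF10, the gene of the death ligand TRAIL, was at 195 and 194 in untreated 1 and 2, 302 and 265 in BOR 1 and 2, 95.9 in VEM and 303 in VEM+BOR, lowest in VEM and at a level near BOR 1 in VEM+BOR. RNF125, DHX58 and APOBEC3F differed by log2 changes of 0.53, -0.37 and -0.84 in VEM+BOR against untreated cells, and none of the 3 passed.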

How the data were processed

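RNA was measured in 6 SKM-1 libraries, grouped by their treatment labels, and replicate numbers follow accession order and pair nothing. Per the labels' protocols, mRNA was purified on poly-T beads and primed with random hexamers, with no strand-marking step named. The submitters' processing notes list edgeR 3.22.5, DESeq2 1.20.0, HISAT2 2.0.5, CASAVA and featureCounts 1.5.0-p3 without saying what each did. No source used here states a genome build, and gene coordinates equal GENCODE 29 for 26704 of 26704 genes.

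The authors deposited 3 tables, each setting 1 treatment against the untreated libraries, with a normalised signal per gene and library, which is the read count over a size factor of that library. The log2 fold changes and p-values that the authors deposited are used only where their table is named. In each column 100% of the deposited signal values were whole multiples of 1 step, to within 0.001, which gave the reads. For VEM that step is too near 1 to check, so no count test used VEM. Library totals are 17252404 to 18507606 reads, and precision falls with the read count.

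The main test used limma 3.58.1 (R 4.3.3), with its trend option, on log2(value + 1) for genes whose mean value reached 10, two-sided, with Benjamini-Hochberg adjustment over all genes tested and a threshold of 0.05. VEM, VEM+BOR and BOR were each tested against untreated within their table. Comparisons across tables used 23519 genes found in all 3, rescaled together by median-of-ratios factors. Alternatives were pseudocounts of 0.5 and 5, no filter and a mean of at least 50, TMM scaling, DESeq2 1.42.0 and edgeR 4.0.16 on the reads, all 6 libraries in 1 fit, each library left out in turn, and, chosen after seeing the data, scaling to library totals and, for the sides of the untreated pair, the scale of all 6 libraries. The fits were tested on simulated data. GC content came from GENCODE 29 transcripts and promoters from RefSeq on GRCh38.p14.

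All genes of the list were accounted for, and those at a mean of at least 1 CPM are described. From the other pathway lists, the rule names genes past the threshold, of those whose 6 libraries average 1 CPM or more up to 3 per list by size of change in VEM+BOR, plus a chosen set that includes IFNAR1, IFNAR2, JAK1, TYK2 and IRF3. Some genes of the rule are not reported here. The genes, the lists and the pattern of all treated libraries on 1 side of the untreated pair were chosen with earlier results of these data known.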

Additional observations from a re-analysis of the deposited data

How the results depend on the processing

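No interferon-stimulated gene passed in any comparison with another pseudocount, filter, scaling, tool or fit of all 6 libraries. Leaving out 1 library gave 0 to 18 genes past the threshold for BOR against untreated, 0 to 19 for VEM+BOR against BOR, 0 to 2 for the libraries with VEM against untreated, and 0 for VEM and for VEM+BOR against untreated. The highest counts came without BOR 1 and without untreated 1. Without untreated 1, IFI44L passed in the libraries with VEM, at 2.35. Over all genes, the alternatives gave 0 to 40 past the threshold for VEM in place of 7, 0 to 88 for VEM+BOR in place of 30, 0 to 777 for the libraries with VEM in place of 34, 0 to 4008 for BOR in place of 0 and 0 to 3591 for VEM+BOR against BOR in place of 0. The median log2 change over the interferon-stimulated genes, with 1 library left out, ranged from -1.33 to 0.19 for BOR, from -0.15 to 1.22 for VEM+BOR against BOR, from -0.34 to 0.21 for the libraries with VEM, from -0.47 to 0.16 for VEM and from -0.23 to 0.30 for VEM+BOR. Where that leaves 1 library in a group, it was assumed to vary like the others. For VEM and VEM+BOR without an untreated library, the spread came from the BOR pair alone. A count of 0 in those fits therefore cannot tell a change from no change. The same limit holds for the fit of all 6 libraries, where 0 of all genes passed in each comparison. With scaling to library totals, chosen after seeing the data, the genes above both libraries of the other group were 4 for VEM+BOR, 2 for the libraries with VEM and 8 for VEM+BOR against BOR, in place of 8, 6 and 5. On the scale of all 6 libraries reads were divided by 0.740 in BOR 2 and by up to 1.13, in untreated 1, while the library totals lay close together. Why these factors differ was not tested. No paired analysis was possible because the labels give the groups no shared replicate numbers. With 1 or 2 libraries a group and under 100 reads in many of these genes, small differences were not detectable at this depth, and edgeR and DESeq2 were not run for VEM.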
